A study of Mus musculus with 16 samples.

Results

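Siglecs are receptors that bind sialic acid, the sugar that caps most glycans on mouse cells, and the enzymes of sialic acid synthesis make the ligand that they read. Levels of 9 such genes were followed in engrafted brain macrophages and in the host microglia of the same brains, with and without a lipopolysaccharide (LPS) challenge. The receptors were Siglech, Siglece, Cd33, Siglec1 and Siglecg, and the enzymes were Gne, Nans, Cmas and Cmah. They were chosen by symbol, and all 9 of them were found among the 24411 genes of the count table.

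RNA was measured in 16 libraries from 8 wild type C57BL/6J mice whose own bone marrow had been destroyed by 950 cGy of irradiation and replaced by donor marrow carrying CD45.1. Each brain gave 1 library of engrafted cells, sorted as Ly6C/G-negative, CD11b+ cells with low CD45.1, and 1 library of host microglia, sorted in the same way with low CD45.2. The labels give 10000 sorted cells a library. The 4 mice of the LPS groups (mice 1 to 4) had received 2.5 mg/kg LPS into the peritoneum 12 h earlier, and the 4 control mice (mice 5 to 8) had received no LPS. This made 4 groups of 4 libraries, referred to as engrafted control, engrafted LPS, host control and host LPS. All 8 mice were irradiated, so neither population stands for microglia of an untreated brain. Host microglia went through the irradiation themselves, whereas engrafted cells came from marrow given after it. Differences between the populations therefore cannot be told apart from effects of irradiation on the host cells. The study names this limit and reports that engrafted cells also differed from microglia of the same age without irradiation. Recipients were 6 weeks old at transplantation, and the donor marrow was wild type apart from the CD45.1 alleles. The labels give 3.5 or 9 months between transplantation and sampling without saying which applies to a library, and the study's text gives the longer interval for the LPS experiment.

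Siglecs of the immune system mostly carry tyrosine motifs that recruit phosphatases and so restrain the cell on which they sit. Siglece and Siglecg belong to this kind, as does human CD33. Siglech has no such motifs and instead signals through the adaptor encoded by Tyrobp, and in the mouse brain it is widely used as a marker of microglia. Siglec1, or sialoadhesin, is an adhesion receptor of macrophages that is induced by interferon. On the ligand side, Gne makes the first committed precursor, Nans condenses it to sialic acid phosphate, and Cmas activates the finished sugar in the nucleus. Cmah then hydroxylates the activated sugar and turns the acetyl form (Neu5Ac) into the glycolyl form (Neu5Gc), which many mouse Siglecs and lectins distinguish.

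Libraries held 395283 to 1203597 reads on genes, with the fewest in the engrafted LPS library of mouse 4. Levels are given in CPM, read counts scaled to a common library size and composition, and 3 reads, the most that a count of 0 allows, corresponded to 2.39 to 8.41 CPM depending on the library. Such limits and all read ratios below cover counting error only. The 9 microglial markers that were checked had reads in every group. Their summed level was 15239 to 17357 CPM in engrafted control, 5495 to 7021 CPM in engrafted LPS, 24078 to 27368 CPM in host control and 11585 to 12626 CPM in host LPS. Sall1 stayed at or under 25.2 CPM in every engrafted library, against 289 to 361 CPM in host control and 75.8 to 124 CPM in host LPS. Summed markers of monocytes were 197 to 324 CPM in engrafted control, 1085 to 2140 CPM in engrafted LPS and at most 25.5 CPM in host libraries. Markers of neutrophils summed to 48.8 to 1153 CPM in engrafted libraries and to at most 15.0 CPM in host libraries. Markers of eosinophils reached 974 CPM in the engrafted library of mouse 6 and 245 CPM in that of mouse 3, and were at most 7.32 CPM elsewhere. Red blood cell markers reached 4724 CPM in the engrafted library of mouse 8 and 6608 CPM in that of mouse 4, and were at most 881 CPM in host libraries. Results that lead the text were therefore also computed without these 4 engrafted libraries, a choice made after the data were seen. This left the engrafted libraries of mice 5 and 7 (control) and mice 1 and 2 (LPS). Those of mice 7 and 1, with neutrophil markers at 1153 and 501 CPM, were thus kept. In bulk libraries fewer cells of a type and less RNA per cell cannot be told apart.

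In the mm9 build used by the files, 4 of the receptor genes lie on chromosome 7. Siglecg (chr7:50663650-50673719, plus strand), Cd33 (chr7:50782826-50788541, minus strand) and Siglece (chr7:50906440-50915531, minus strand) lie close together in the Siglec cluster, and Siglech (chr7:63023554-63034295, plus strand) lies apart from them. Siglec1 is on chromosome 2 (chr2:130894956-130912501, minus strand). The enzymes are scattered, with Gne (chr4:44046947-44097049, minus strand) and Nans (chr4:46502201-46516310, plus strand) on chromosome 4, Cmas on chromosome 6 (chr6:142705206-142724234, plus strand) and Cmah on chromosome 13 (chr13:24419273-24569158, plus strand).

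The 250 bases before the annotated start of the transcript model counted are shown for the 3 members whose level changed most clearly with LPS, Siglech (chr7:63023304-63023553, plus strand), Siglece (chr7:50915532-50915781, minus strand) and Cmah (chr13:24419023-24419272, plus strand), read from the mm9 reference from 5′ to 3′ on the gene's strand. Capitals mark TTCCTC, which is the core of the PU.1 motif, GAGGAA, read on the opposite strand.
Siglech: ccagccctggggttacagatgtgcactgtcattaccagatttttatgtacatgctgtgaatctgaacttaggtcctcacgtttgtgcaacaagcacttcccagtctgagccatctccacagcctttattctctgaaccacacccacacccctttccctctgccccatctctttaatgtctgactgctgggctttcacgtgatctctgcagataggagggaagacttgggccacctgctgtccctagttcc
Siglece: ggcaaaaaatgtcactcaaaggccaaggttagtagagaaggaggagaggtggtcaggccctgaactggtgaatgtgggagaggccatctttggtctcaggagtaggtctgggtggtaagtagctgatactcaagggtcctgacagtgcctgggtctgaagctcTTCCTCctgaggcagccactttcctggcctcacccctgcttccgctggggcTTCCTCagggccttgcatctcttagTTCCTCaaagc
Cmah: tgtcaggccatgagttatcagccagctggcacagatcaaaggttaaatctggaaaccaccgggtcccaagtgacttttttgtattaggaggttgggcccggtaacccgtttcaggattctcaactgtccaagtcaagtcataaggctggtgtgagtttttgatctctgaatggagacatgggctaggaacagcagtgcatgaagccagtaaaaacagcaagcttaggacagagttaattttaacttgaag
Siglece held this core 3 times, beginning 87, 36 and 11 bases before its start, whereas no match was found in the windows of Siglech and Cmah. On both strands, 22.9% of the 24341 promoters of this length held the core at least once. Cd33 held it 1 time and Cmas 2 times, and the windows of Siglec1, Siglecg, Nans and Gne held none. The longer PU.1 motif GAGGAAGT (2.35% of all promoters), the interferon response motif (GAAA, any 2 bases, then GAAA, 3.13%), the AP-1 motif TGANTCA (6.16%) and the NF-kappaB motif (7.75%) had no match in any of the 9 windows. The short core was added after the longer motif had given none, it lies within the longer motif, and no match in 250 bases says nothing about binding elsewhere.

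Siglech, the microglial marker among the receptors, was lower in engrafted than in host cells and lower after LPS in both populations. In host control it gave 1070.2, 1198, 1149 and 933 CPM in mice 5 to 8 (1088 ± 115, mean ± SD, n = 4). In engrafted control cells of the same mice it gave 529.8, 418, 455 and 515 CPM (479.5 ± 52.0). Every engrafted library thus lay below every host library, at 44.1% of the host mean.

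After LPS, Siglech gave 419, 547, 329.6 and 323 CPM in the host libraries of mice 1 to 4 (405 ± 105), and 102, 109, 135 and 89.7 CPM in the engrafted libraries (109 ± 19.3). The LPS groups did not overlap with each other or with the control group of their own population, and the order from high to low was host control, engrafted control, host LPS and engrafted LPS. Engrafted control and host LPS were neighbours in that order and their libraries overlapped.

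Siglech was lower in engrafted than in host cells without LPS (log2 fold change -1.12, SE 0.12, adjusted p = 4.14e-08, from the quasi-likelihood test of edgeR, adjusted by Benjamini-Hochberg across all tested genes) and after LPS (log2 fold change -1.86, SE 0.22, adjusted p = 6.49e-06). It fell with LPS in engrafted cells (log2 fold change -2.17, SE 0.19, adjusted p = 2.66e-08) and in host microglia (log2 fold change -1.44, SE 0.17, adjusted p = 5.11e-07). The fall was 0.74 log2 units deeper in engrafted cells, but this difference between the responses did not pass the test (SE 0.25, adjusted p = 0.0821), and under the other settings tried its adjusted p ran from 0.0509 to 0.163. The summed microglial markers given above moved in the same direction as Siglech in each of these comparisons, but not every single marker did. Fcrls overlapped between engrafted control (2138 to 2507 CPM) and host control (2093 to 2579 CPM), and Csf1r, Cx3cr1 and Gpr34 overlapped there as well. After LPS the populations overlapped in Tmem119 (720 to 1052 CPM in engrafted and 760 to 1256 CPM in host cells) and in Gpr34. Of the plasmacytoid dendritic cell list, whose cells also carry Siglech, Ccr9 had at most 4 reads in a library. In engrafted control, Spib reached 57 reads, Klk1 17 and Runx2 10 (medians 5.17, 1.74 and 9.26 CPM). They had at most 1, 0 and 6 reads in an engrafted LPS library, and at most 7, 3 and 5 in a host library. Cox6a2 and Pacsin1 of the same list had higher medians in host cells. Cox6a2 gave 10.8 to 24.6 CPM in engrafted control and 17.4 to 36.6 CPM in host control, which overlapped. With LPS it gave 5.59 to 12.2 CPM in engrafted and 13.3 to 50.1 CPM in host cells. Pacsin1 gave 0 to 6.74 CPM in engrafted control, 9.57 to 33.7 CPM in host control and at most 4.99 CPM in an LPS library. The summed list was 226 to 370 CPM in engrafted control and 115 to 186 CPM in engrafted LPS. It was 165 to 268 CPM in host control and 173 to 211 CPM in host LPS. Most of it was Tcf4, at 184 to 267 CPM in engrafted control and 107 to 169 CPM in engrafted LPS. Tcf4 gave 137 to 198 CPM in host control and 126 to 165 CPM in host LPS. The part of plasmacytoid dendritic cells in the levels of Siglech was not tested.

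**Figure D1:**
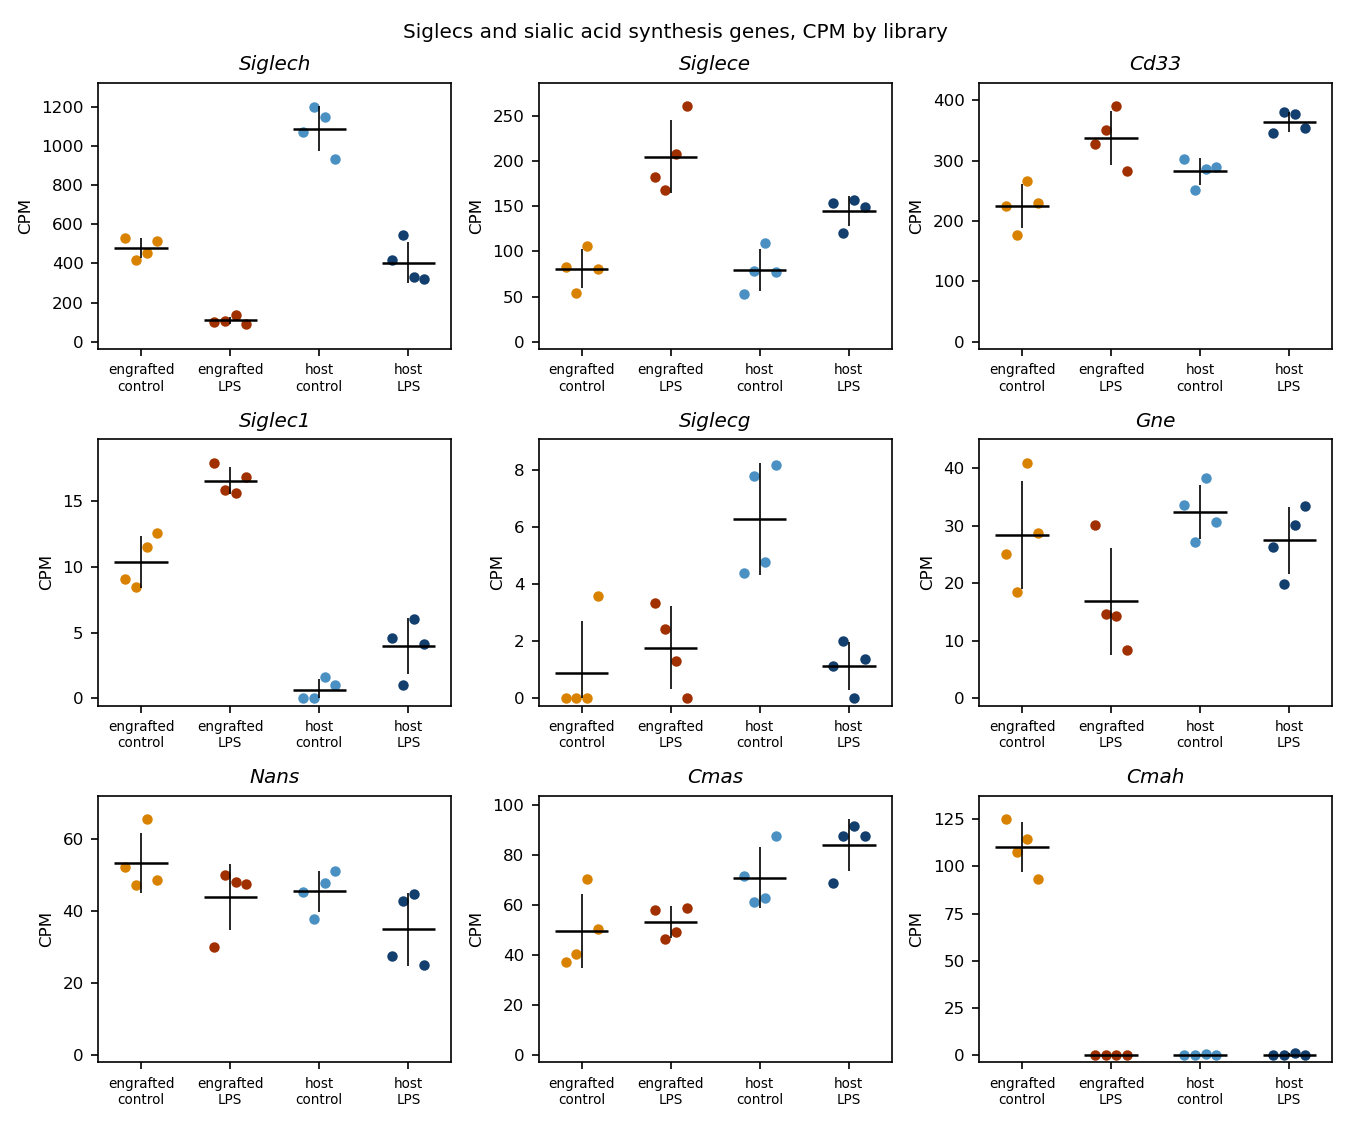
Levels of the 9 genes in CPM on linear axes starting at 0, with 1 point for each of the 4 libraries of a group, a horizontal bar for the mean and a vertical line for ±1 SD (cut at 0). Siglech stood between 89.7 and 135 CPM in engrafted LPS and between 933 and 1198 CPM in host control, and Cmah was read in strength in engrafted control alone (93.6 to 125 CPM).

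Siglece encodes an inhibitory receptor of neutrophils, monocytes and macrophages that binds sialic acid on neighbouring cells, and it was higher after LPS in both populations. It gave 82.6, 53.9, 106 and 81.0 CPM in engrafted control (81.0 ± 21.5, n = 4) and 52.7, 78.7, 109 and 77.6 CPM in host control (79.6 ± 23.2). The 2 control groups overlapped throughout. After LPS it gave 182, 168, 208 and 261 CPM in engrafted cells (205 ± 40.7) and 154, 121, 157 and 149 CPM in host microglia (145 ± 16.6). Each LPS group lay above all 8 control libraries, and every engrafted LPS library lay above every host LPS library.

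Siglece rose with LPS in engrafted cells (log2 fold change 1.28, SE 0.21, adjusted p = 8.13e-05, edgeR). In host microglia its rise passed the test but was smaller than 2-fold (log2 fold change 0.83, SE 0.18, adjusted p = 0.00105). The rise in engrafted cells was also fitted without the 4 engrafted libraries with most eosinophil or red blood cell reads, with mice 1 and 2 against mice 5 and 7. It came to 0.88 (adjusted p = 0.00342) and was then also smaller than 2-fold. Without the host control library of mouse 7 the rise in host microglia came to 1.02 (adjusted p = 3.81e-04). Neither the difference between the responses (0.44 log2 units, SE 0.29, adjusted p = 0.434) nor that between the populations without LPS (0.06, SE 0.19, adjusted p = 0.870) or after LPS (0.51, SE 0.20, adjusted p = 0.0917) passed the test. Of the 6 monocyte markers, 5 were higher in engrafted LPS than in engrafted control with no overlap, among them Ly6c2 at 412 to 871 against 21.6 to 39.3 CPM, and Ccr2 was lower, at 31.7 to 62.5 against 84.6 to 227 CPM. In host microglia Ly6c2 was at most 9.74 CPM after LPS. Their part in the level of Siglece was not tested.

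Cd33, whose human counterpart is an inhibitory receptor studied as a risk gene of Alzheimer's disease, had group means between 225 and 364 CPM. It gave 225, 177, 267 and 230.4 CPM in engrafted control (225 ± 37.0, n = 4) and 303, 252, 286 and 289 CPM in host control (282 ± 21.8). After LPS it gave 328, 351, 390.3 and 283 CPM in engrafted cells (338 ± 44.8) and 345, 379.9, 377 and 353 CPM in host microglia (364 ± 17.1). In both populations all LPS libraries lay above all control libraries, whereas engrafted and host libraries overlapped under either treatment. The log2 fold change with LPS was 0.55 in engrafted cells (SE 0.18, adjusted p = 0.0212, edgeR) and 0.35 in host microglia (SE 0.14, adjusted p = 0.0426), both smaller than 2-fold. Leaving out single libraries moved the adjusted p to as much as 0.0923 in engrafted cells, without the control library of mouse 6, and to as much as 0.152 in host microglia, there also without the control library of mouse 6. Between the populations Cd33 differed by -0.27 without LPS (SE 0.14, adjusted p = 0.164) and by -0.08 after LPS (SE 0.18, adjusted p = 0.836).

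Siglec1, the interferon-induced adhesion receptor, was read at a low level and mostly in engrafted cells. It had 9, 5, 7 and 7 reads in engrafted control (10.4 ± 1.97 CPM, n = 4) against 0, 0, 2 and 1 in host control (0.654 ± 0.791 CPM). With LPS it had 16, 13, 12 and 6 reads in engrafted cells (16.5 ± 1.04 CPM) and 4, 1, 5 and 3 in host microglia (3.95 ± 2.12 CPM). Under either treatment the CPM of every engrafted library was above that of every host library.

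After LPS, Siglec1 was higher in engrafted than in host cells (log2 fold change 2.09, SE 0.41, adjusted p = 0.00142, edgeR). Without LPS it had too few reads for that test, and the ratio of reads was 13.4 (95% exact binomial interval 4.13 to 68.8, two-sided exact permutation p = 0.029, the smallest that 4 against 4 libraries can give). With the filter on low counts removed this comparison gave an adjusted p of 3.03e-04. The level with LPS was higher in all engrafted libraries than in any of their controls, but the log2 fold change of 0.64 (SE 0.34, adjusted p = 0.147) did not pass the test. In host microglia, where LPS and control libraries overlapped, the ratio of reads after LPS to control was 5.00 (95% interval 1.37 to 27.3, exact permutation p = 0.0857). The difference between the responses did not pass either (log2 difference -1.49, SE 0.82, adjusted p = 0.335). Perivascular macrophages also carry Siglec1, and their markers summed to 1634 to 2221 CPM in engrafted and 382 to 870 CPM in host libraries. Most of this was Stab1, at 954 to 1461 CPM in engrafted and 360 to 850 CPM in host libraries. Mrc1 was at 403 to 550 CPM in engrafted and at most 22.3 CPM in host libraries, and Pf4 at 84.1 to 403 CPM and at most 7.18 CPM. Cd209f reached 19.8 CPM in engrafted control and had 0 reads in engrafted LPS. Lyve1 had 0 reads in all host libraries and at most 3 reads in an engrafted library. Irf7, an interferon-induced gene, went from 128 to 182 CPM in engrafted control to 783 to 1376 CPM in engrafted LPS, and from 70.9 to 88.8 CPM to 109 to 199 CPM in host microglia. Isg15, also interferon-induced, went from 49.4 to 52.4 CPM in engrafted control to 312 to 506 CPM in engrafted LPS. In host microglia Isg15 overlapped between control and LPS (30.7 to 63.0 and 47.3 to 232 CPM). Ifit2, another interferon-induced gene, overlapped between control and LPS in engrafted cells (21.6 to 70.5 and 16.8 to 83.0 CPM) and in host microglia (27.8 to 45.5 and 15.3 to 41.9 CPM). The part of these genes in the level of Siglec1 was not tested.

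Siglecg, an inhibitory receptor best known from B cells, had few reads everywhere and most in host control. It had 3, 8, 6 and 8 reads there (6.28 ± 1.97 CPM, n = 4) and 1, 2, 0 and 1 in host LPS (1.13 ± 0.835 CPM). Engrafted control libraries had 0, 0, 0 and 2 reads and engrafted LPS libraries 3, 2, 1 and 0. Host control lay above each of the groups it was compared with, and the other groups overlapped. The ratio of reads was 0.115 for engrafted to host cells without LPS (95% exact binomial interval 0.0132 to 0.460) and 0.184 for LPS to control in host microglia (95% interval 0.0467 to 0.534), each with an exact permutation p of 0.029, the smallest possible. No comparison of Siglecg passed the filter on low counts, and without the filter these 2 comparisons had adjusted p = 0.0256 and 0.0161 (edgeR). After LPS the populations were not distinguishable at this depth (6 reads in engrafted and 4 in host libraries). The B cell genes Cd79a and Pax5 had 0 reads in all 16 libraries, which allows up to 8.41 CPM in the shallowest library. Cd79b, another B cell gene, was read in every group, at 37.9 to 49.0 CPM in host control, 18.1 to 22.9 CPM in host LPS, 31.1 to 72.5 CPM in engrafted control and 14.0 to 26.8 CPM in engrafted LPS. It was thus lower after LPS in host microglia, as Siglecg was, and its part in that result was not tested.

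Of the enzymes, Gne, Nans and Cmas were not called in any comparison. Gne, the entry step of the pathway, had group means of 28.4 ± 9.41 CPM in engrafted control, 16.9 ± 9.32 in engrafted LPS, 32.4 ± 4.71 in host control and 27.5 ± 5.78 in host LPS (n = 4 each). Its engrafted LPS libraries ran from 8.41 to 30.2 CPM and overlapped with all other groups. The log2 fold change with LPS in engrafted cells was -0.67 (SE 0.35, adjusted p = 0.140, edgeR), and without the LPS library of mouse 1, the highest of the 4, it was -1.11 (adjusted p = 0.0338).

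Nans, which condenses the precursor to sialic acid phosphate, had group means of 53.4 ± 8.36 CPM in engrafted control, 44.0 ± 9.26 in engrafted LPS, 45.5 ± 5.61 in host control and 35.0 ± 10.2 in host LPS. The groups overlapped in each of the 4 comparisons, and its log2 fold changes ran from -0.38 (LPS in host microglia, adjusted p = 0.174) to 0.32 (engrafted against host cells after LPS, adjusted p = 0.477). Cmas, which activates the sugar, was read lower in engrafted cells. It gave 58.2, 46.4, 49.4 and 58.9 CPM in engrafted LPS (53.2 ± 6.26, n = 4) and 68.8, 87.7, 91.8 and 87.6 CPM in host LPS (84.0 ± 10.3), with no overlap (log2 fold change -0.65, SE 0.20, adjusted p = 0.0283). This difference was smaller than 2-fold, and its adjusted p rose to as much as 0.101 when single libraries were left out, here that of mouse 2 in engrafted LPS. Without LPS, Cmas gave 49.6 ± 15.0 CPM in engrafted and 70.9 ± 12.2 CPM in host cells, which overlapped (log2 fold change -0.48, SE 0.20, adjusted p = 0.0853).

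Cmah, the enzyme that makes the glycolyl form of sialic acid, was the only enzyme of the 4 that was called. It gave 125, 108, 115 and 93.6 CPM in the engrafted control libraries of mice 5 to 8 (110.3 ± 13.1, n = 4, 310 reads in all). Not a single read fell on it in the 4 engrafted LPS libraries, and host control and host LPS had 1 read each in all. Engrafted control thus stood apart from the other 12 libraries, in which no library had more than 1 read.

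Cmah was higher in engrafted than in host cells without LPS (adjusted p = 1.09e-14, edgeR), with a ratio of reads of 444 (95% exact binomial interval 79.2 to 17612). In engrafted cells it was at least 22.8-fold lower after LPS, the control mean being set against 3 reads in each LPS library (adjusted p = 6.04e-10). After LPS both populations were at or under 3 reads, so no fold is given, and the same holds for LPS against control in host microglia. The interaction test for Cmah gave an adjusted p of 0.0318 with edgeR, 9.67e-09 with limma-trend and 6.20e-05 with DESeq2. Host control held 1 read in all, so host microglia could not show a fall. With any of these tools the test therefore restates the fall in engrafted cells. The call rested on the host LPS library of mouse 3, which held that group's 1 read, since without it the adjusted p of edgeR was 1, and in the other fits that left out 1 library it ran from 0.0264 to 0.0488. In engrafted cells 5 of the 6 monocyte markers were higher after LPS and Ccr2, like Cmah, was lower, and neutrophil markers overlapped between engrafted control (259 to 1153 CPM) and engrafted LPS (48.8 to 501 CPM). The part of other cells in the reads of Cmah was not tested, and the comparison without the 4 engrafted libraries named above gave the same calls for Cmah (adjusted p = 1.32e-12 against host cells and 5.54e-08 with LPS).

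Set side by side, the counts of members called, that is changed by more than 2-fold with an adjusted p under 0.05, were small. Without LPS, 7 members passed the filter on low counts, and 1 was higher (Cmah) and 1 lower (Siglech) in engrafted cells, where 6.25% and 4.73% of all 8042 genes tested were called higher and lower. After LPS 7 members passed, and 1 was higher (Siglec1) and 1 lower (Siglech), against 6.73% and 4.34% of 7843 genes. With LPS in engrafted cells 8 members passed, with 1 higher (Siglece) and 2 lower (Siglech, Cmah), against 10.2% and 11.3% of 7609 genes. In host microglia 6 members passed, with 0 higher and 1 lower (Siglech), against 7.66% and 10.4% of 8238 genes. For the difference between the responses 8 members passed, with 0 higher and 1 lower in engrafted cells (Cmah), against 2.45% and 2.5% of 8847 genes. The members that passed include those that did so only through the group in which they were high, such as Cmah. Its call for the difference between the responses restates its fall in engrafted cells, since host control held 1 read in all.

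**Figure D2:**
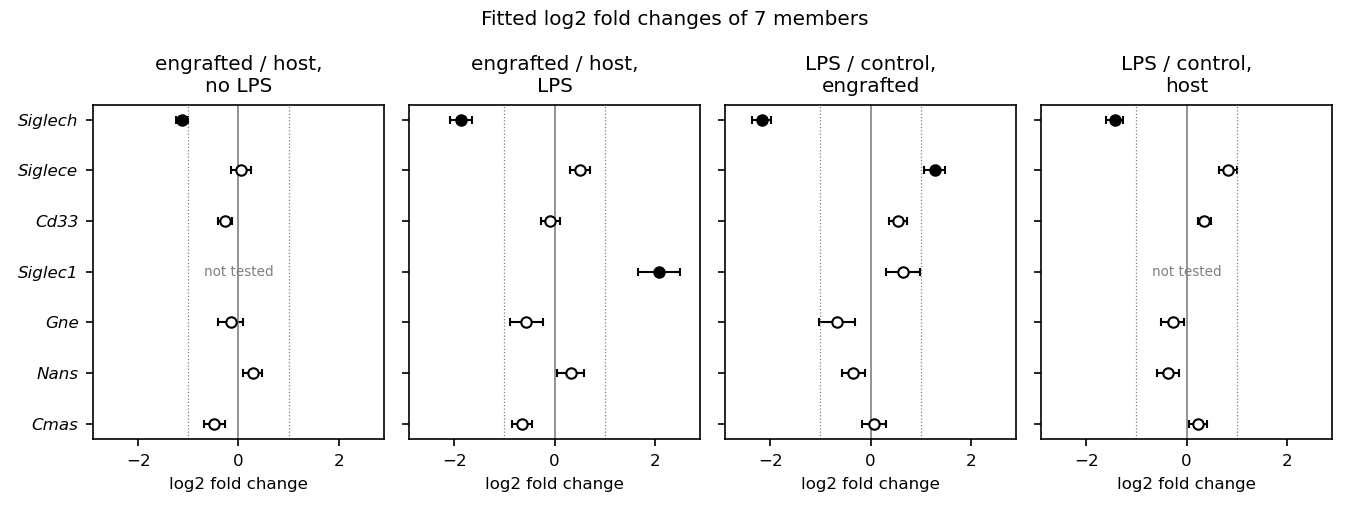
Fitted log2 fold changes of 7 members in 4 comparisons, with bars for ±1 standard error, filled points for genes called and dotted lines at a 2-fold change. Siglech lay at -1.12, -1.86, -2.17 and -1.44 from left to right, and Cmah (reads almost only in 1 group) and Siglecg (too few reads) are not drawn.

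Among Siglecs beyond these 9 genes, Siglecf and Cd22 were called. Siglecf, an inhibitory receptor best known from eosinophils, was read in host microglia at 32.2, 32.1, 39.9 and 36.8 CPM without LPS (35.2 ± 3.80, n = 4) and in engrafted control at 1.64 to 3.60 CPM. It was lower in engrafted cells (log2 fold change -3.88, SE 0.40, adjusted p = 2.57e-08, edgeR) and fell with LPS in host microglia to 15.3 ± 6.39 CPM (log2 fold change -1.24, SE 0.27, adjusted p = 8.60e-04). The engrafted library of mouse 6, with most eosinophil reads, had 1 read of Siglecf. Cd22, the B cell Siglec, gave 65.7 ± 9.24 CPM in engrafted control and 31.7 ± 16.7 CPM in engrafted LPS and fell with LPS (log2 fold change -1.25, SE 0.28, adjusted p = 0.00152). The B cell gene Cd79b was lower as well in engrafted LPS, as given above, and its part in the level of Cd22 was not tested. Mag was not called in any comparison, and Siglec15 had 0 reads in all 16 libraries. Over the whole family of 9 genes, 6 were tested without LPS, with 0 called higher and 2 lower in engrafted cells, and the median log2 fold change was -0.22 beside 0.02 over all genes tested. After LPS 6 were tested, with 1 called higher and 1 lower (median -0.01, beside -0.01). With LPS the calls were 1 higher and 2 lower in engrafted cells (6 tested, median -0.08, beside -0.01) and 0 higher and 2 lower in host microglia (6 tested, median -0.36, beside 0.01). In the same order, the shares of all genes tested called higher and lower were 6.25% and 4.73%, 6.73% and 4.34%, 10.2% and 11.3%, and 7.66% and 10.4%. For the difference between the responses 7 were tested and 0 called, against 2.45% and 2.5%.

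Signalling partners of the receptors had 1 call in all, with 6 tested in each comparison. It came with LPS in host microglia, where 7.66% of all genes tested were called higher. Tyrobp, the adaptor through which Siglech signals, had group means of 2034 to 2686 CPM and was not called in any comparison. Of the 6 partners, Ptpn11, a phosphatase recruited by inhibitory receptors, was the one called, with a rise in host microglia from 12.3 ± 2.35 to 30.5 ± 6.85 CPM after LPS (n = 4 each, log2 fold change 1.27, SE 0.27, adjusted p = 6.32e-04, edgeR). In engrafted cells it gave 18.3 ± 1.95 and 20.3 ± 10.5 CPM, and the difference between the responses did not pass the test (adjusted p = 0.139).

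Sialyltransferases attach the activated sugar to glycans and so set which Siglec ligands a cell displays. Of 20 such genes, 10 were tested without LPS. In engrafted cells 2 were called higher and 3 lower, where 6.25% and 4.73% of all genes tested were. After LPS 8 were tested, with 2 higher and 1 lower, against 6.73% and 4.34%. With LPS in engrafted cells 9 were tested, with 1 higher and 3 lower, against 10.2% and 11.3%. In host microglia 9 were tested, with 1 higher and 4 lower, against 7.66% and 10.4%. For the difference between the responses 11 were tested, with 1 higher and 2 lower, against 2.45% and 2.5%. The medians of their log2 fold changes in the order given were -0.29, 0.06, -0.48, -0.92 and 0.42. Over all genes tested they were 0.02, -0.01, -0.01, 0.01 and -0.04.

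St3gal5 makes the precursor of most brain gangliosides, and its levels in both populations met after LPS. It gave 167, 182, 175 and 164 CPM in host control (172 ± 7.92, n = 4) and 11.1, 13.5, 6.55 and 5.40 CPM in engrafted control (9.13 ± 3.80), a log2 fold change of -4.12 (SE 0.21, adjusted p = 2.74e-14, edgeR). After LPS the groups overlapped, at 32.9 to 59.2 CPM in host and 47.6 to 64.5 CPM in engrafted cells. It thus rose in engrafted cells (log2 fold change 2.44, SE 0.31, adjusted p = 3.88e-06) and fell in host microglia (log2 fold change -1.92, SE 0.19, adjusted p = 3.79e-08), and the responses differed (log2 difference 4.35, SE 0.33, adjusted p = 1.43e-09).

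St3gal1, which caps O-linked glycans, gave 1.02 to 4.79 CPM in host control and 26.2 to 50.6 CPM in engrafted control (log2 fold change 3.72, SE 0.38, adjusted p = 1.69e-08). With LPS it rose in host microglia to 27.9 ± 11.6 CPM (log2 fold change 3.03, SE 0.42, adjusted p = 4.91e-06), and the responses differed (log2 difference -2.63, SE 0.55, adjusted p = 0.00339). After LPS the populations overlapped, and its call there (log2 fold change 1.09, adjusted p = 0.0230) was lost under 6 of 16 other settings. St3gal6, which acts on N-linked and lipid-linked chains, fell with LPS in engrafted cells from 73.9 ± 12.4 to 16.7 ± 6.67 CPM (log2 fold change -2.30, SE 0.28, adjusted p = 2.17e-06), while it gave 139.7 ± 25.4 and 114 ± 20.6 CPM in host microglia. These responses differed as well (log2 difference -2.02, SE 0.32, adjusted p = 1.71e-04).

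**Figure D3:**
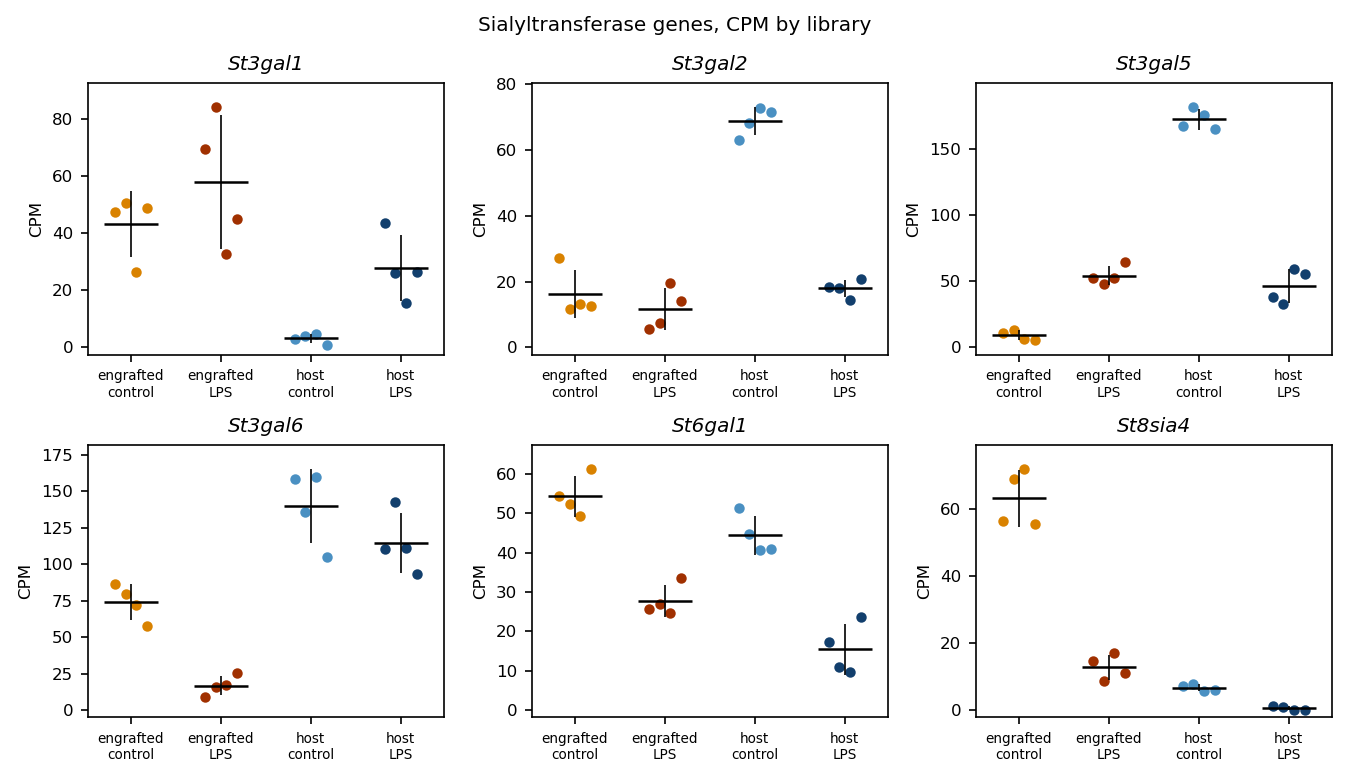
Levels of 6 sialyltransferase genes in CPM on linear axes starting at 0, drawn as in the plot of the 9 genes (points for libraries, bars for mean and ±1 SD). St3gal5 stood at 164 to 182 CPM in host control and at 5.40 to 13.5 CPM in engrafted control, and the 2 LPS groups overlapped.

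Among the other transferases, St8sia4, a polysialyltransferase, gave 63.4 ± 8.46 CPM in engrafted control and 6.70 ± 1.02 CPM in host control (log2 fold change 3.28, SE 0.27, adjusted p = 3.27e-10). It fell with LPS in engrafted cells to 12.8 ± 3.68 CPM (log2 fold change -2.31, SE 0.28, adjusted p = 1.78e-06). In host microglia it was lower after LPS as well, at 0.536 ± 0.622 CPM, with 26 reads in host control and 2 in host LPS. St3gal2 was lower in engrafted control (16.2 ± 7.37 CPM) than in host control (68.8 ± 4.33 CPM) and fell with LPS in host microglia to 17.9 ± 2.62 CPM (log2 fold changes -1.92 and -1.95). St6gal1, which makes the linkage that Cd22 binds, fell with LPS in host microglia (log2 fold change -1.55, SE 0.26, adjusted p = 5.60e-05) and in engrafted cells (log2 fold change -1.04, SE 0.23, adjusted p = 0.00145), the latter within 2-fold under 5 of 15 other settings. St8sia6 fell with LPS in host microglia from 25.0 ± 3.95 to 4.03 ± 2.71 CPM (log2 fold change -2.60, SE 0.38, adjusted p = 1.01e-05). In engrafted cells it was lower after LPS as well, with 32 reads in engrafted control and 2 in engrafted LPS. The call of St8sia6 between the populations without LPS (log2 fold change -1.05, adjusted p = 0.0159) was lost without the engrafted or the host control library of mouse 6 (adjusted p = 0.0597 and 0.0590) and without the 4 engrafted libraries named above (0.0864). St3gal4 was higher in engrafted than in host cells after LPS (21.3 ± 5.85 against 7.67 ± 4.02 CPM, log2 fold change 1.41, adjusted p = 0.0153), and this call was lost without the host LPS library of mouse 1 or 3 or the engrafted LPS library of mouse 2 (adjusted p = 0.0581, 0.0610 and 0.0643).

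Of the 8 genes of sialic acid release and salvage, Npl alone was called. It was 1 of 5 tested both without and after LPS, where 4.73% and 4.34% of all genes tested were called lower. Npl, the lyase that breaks sialic acid down, was lower in engrafted cells without LPS (13.7 ± 5.85 against 34.4 ± 3.64 CPM, log2 fold change -1.18, SE 0.29, adjusted p = 0.00269) and after LPS (13.1 ± 8.81 against 33.1 ± 2.92 CPM, log2 fold change -1.52, SE 0.36, adjusted p = 0.00662). Without the 4 engrafted libraries named above the first of these came to -0.86 (adjusted p = 0.0490). Of the synthesis genes beyond the members, Slc35a1, the transporter that brings the activated sugar into the Golgi, had group means of 16.3 to 25.7 CPM and was not called, and Nanp had at most 4 reads in a group. Of the 6 synthesis genes 4 or 5 were tested in each comparison, and the calls were those of Cmah. The shares over all genes are those given with the counts of members.

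**Figure D4:**
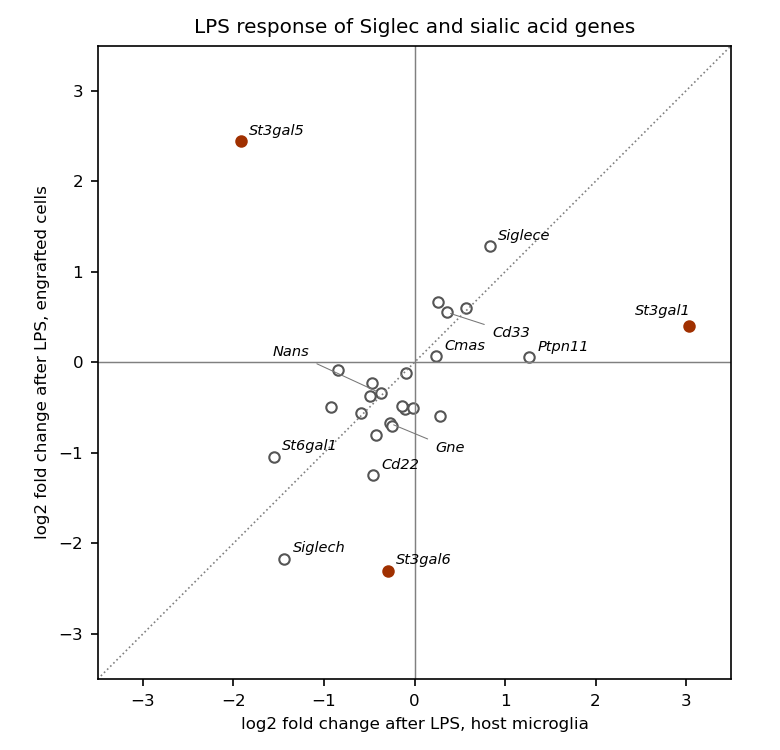
Log2 fold change with LPS in host microglia (horizontal axis) against that in engrafted cells (vertical axis) for the 26 genes of the 5 gene lists that passed the filter in both, with filled points where the responses differed by the interaction test and a dotted line of equal change. St3gal5 stands at -1.92 in host and 2.44 in engrafted cells. Siglech and Siglece changed in the same direction in both populations and lie off the line, but their responses did not differ by the interaction test.

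The genes whose levels followed each member most closely over the 16 libraries are given as a description, since all libraries share the 2 factors population and LPS. Siglech was closest to Plxdc2 (Pearson r = 0.99 of log2(CPM + 1), n = 16), Slc12a2 (0.97) and Kctd12 (0.97). Siglece was closest to Adssl1 (0.92), Flna (0.90) and Eif4ebp1 (0.90), and Cd33 to Mrpl16 (0.93), Ppp1r21 (0.93) and Vash1 (0.91). Siglec1 was closest to Coro7 (0.96), Adap1 (0.94) and Grk6 (0.93). Cmah was closest to Sesn1 (0.94), Ifnar1 (0.93) and Ankrd12 (0.91), and Cmas to Shmt2 (0.91), Spcs3 (0.89) and Tssc4 (0.85). Nans, which was not called, reached 0.82 with Arhgap9, 0.75 with Luc7l3 and 0.74 with Uap1l1, and Gne 0.87 with Rad9a, 0.85 with Tm9sf2 and 0.85 with Polrmt.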

How the data were processed

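RNA of 16 sorted populations from 8 mice had been captured by oligo(dT) and turned into libraries by a derivation of MARS-seq, which reads the 3′ ends of transcripts. The counts deposited by the authors are raw and not normalized: reads were mapped to NCBI37 (mm9) with HISAT (0.1.5 in the submitters' processing notes), uniquely mapped reads were kept, and those on the exons of 1 transcript model a gene were counted on the sense strand with HOMER. Reads from another 3′ end than that of the model are not seen in these counts. The text names no removal of PCR duplicates. Other samples of the series were not analysed here.

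The analysis used edgeR 4.0.16 under R 4.3.3, with filterByExpr (at least 10 reads in enough libraries and 15 in all), TMM scaling, the quasi-likelihood test on the libraries of the 2 groups compared (4 against 4), and Benjamini-Hochberg adjustment over all genes tested. The difference between the LPS responses was the interaction term of all 16 libraries. Standard errors (SE) were derived from this test, as the absolute log2 fold change divided by the square root of its F statistic. A gene was called at more than 2-fold and an adjusted p under 0.05. For members below the filter, ratios of reads with exact binomial 95% intervals and two-sided exact permutation tests of log2(CPM + 1) are given, in which p cannot go below 0.029. CPM were computed on TMM library sizes of the 16 libraries. limma 3.58.1 (trend) and DESeq2 1.42.0 were alternatives, with other scaling, no filter, a block for the mouse, all libraries in 1 fit, and each library left out in turn. The scripts were tested on simulated counts.

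Both populations of a mouse carry its number, so numbers pair the samples. Deviations from group means of the paired libraries correlated with r from -0.03 to 0.19. Mice differ between control and LPS groups, so those comparisons have no pairs. Replicate libraries differed by 1.98 to 8.64 times counting noise (chi-square per degree of freedom, 24 pairs), and none was a copy of another.

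The 9 genes, the gene lists and the motifs were chosen with earlier results of these data known. Named genes are the 9 members, every gene of the 5 lists (synthesis, sialyltransferases, release and salvage, Siglec family, signalling partners) called in at least 1 comparison, and for each tested member the 3 genes closest to it in Pearson r among those averaging 50 CPM or more. Other genes are named as cell type markers or as genes at 0 or not called. Promoters were read from the mm9 sequence, and 24341 of 24411 genes had a window in the reference.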

Additional observations from a re-analysis of the deposited data

Results flagged for a closer look

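In the engrafted LPS group, Nans had 30.2 CPM in mouse 1 against 47.7 to 50.0 CPM in the other 3 mice. The gap to the next library was 0.881 of the range of the group, above the 95% critical value of Dixon's test for groups of 4. Chance alone sets a library apart in this way in about 1 of 20 groups. The response of Cmah to LPS differed between the populations by the interaction test (adjusted p = 0.0318, edgeR), which rested on 1 read in the host LPS library of mouse 3. Host control also held 1 read in all, so host microglia could not show a fall.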

How the results depend on the processing

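The 4 groups hold 4 libraries each, and Siglec1, Siglecg and Cmah rest on few reads in at least 1 group. Of 1026 values of members and called list genes under other settings, 983 kept their direction and side of the threshold, 20 lost a call, 2 gained one and 21 turned direction; none of the 21 was called. With a block for the mouse 902, 882 and 477 genes were called (without LPS, after LPS, difference between responses) with 2, 2 and 1 members, and no member's call changed under the pairing. Without the filter on low counts 1454 genes were called without LPS and 1352 after LPS, with 4 members called without LPS and 2 with LPS in host microglia, where 1 fit of all 16 libraries also called 2. Leaving out single libraries gave 903 to 1050, 841 to 969, 1538 to 1889, 1460 to 1744 and 309 to 476 genes and 2 to 2, 2 to 2, 3 to 4, 1 to 2 and 0 to 1 members for engrafted against host cells without and after LPS, the LPS response of engrafted cells, that of host microglia and the difference between both. The 0 came without the host LPS library of mouse 3, which left Cmah at -8.13. The 4 came with Gne (-1.11) called without the engrafted LPS library of mouse 1. In host microglia the 2 came with Siglece (1.02) called without the host control library of mouse 7. The cause of the changes in the numbers of genes was not tested. Signs turned for Siglece without LPS (-0.03 with library totals, 0.00 without the filter, 0.00 with limma-trend, -0.09 to 0.25 with 1 library left out), Gne without LPS (0.02 without the 4 engrafted libraries with most eosinophil or red blood cell reads), Cmas with LPS in engrafted cells (-0.01 with library totals and without those 4 libraries, -0.09 to 0.28 with 1 library left out), and, for the difference between responses, Nans (-0.03 with library totals, -0.22 without the 4 libraries, -0.08 to 0.20 with 1 library left out) and Cmas (-0.32 to 0.07 with 1 library left out). The choice of those 4 libraries was made after seeing the data.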
